A study of Mus musculus with 9 samples.

Results

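A set of 10 genes that cut or protect the extracellular matrix were followed through ChIC-Seq peak lists of oviductal muscle: the matrix metalloproteinases Mmp2, Mmp3, Mmp11, Mmp14 and Mmp19, the inhibitors Timp2 and Timp3, and the ADAMTS proteases Adamts1, Adamts5 and Adamts9. These 10 genes, of 21853 protein-coding genes on the annotated nuclear chromosomes, were taken by name. For each gene, all peaks that touched its body or the 25 kb on either side were taken, and this stretch is called its window. Peaks were split into promoter peaks, which touched the sequence within 1 kb of a transcript start, intragenic peaks and flanking peaks. The 3 H3K27ac lists had 107, 94 and 91 peaks in the 10 windows, of 152889, 99035 and 93684 in all. The 3 H3K4me1 lists had 119, 118 and 127, of 128684, 100804 and 103296. The pooled lists, each called on the 3 replicates of a mark together, had 63 H3K27ac and 106 H3K4me1 peaks there.

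Matrix metalloproteinases are zinc enzymes that are made as inactive precursors and degrade collagens and other matrix proteins once their propeptide is removed. TIMP proteins bind and block their active sites, and TIMP2 also helps the membrane protease MMP14 to activate the MMP2 precursor. ADAMTS proteases cleave proteoglycans such as versican and aggrecan. H3K27ac marks active promoters and enhancers, and H3K4me1 is typical of enhancers and of the shoulders of promoters.

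WT females aged 8 to 12 weeks and mated with a stud male gave the primary oviductal muscle cells on day 2 (D2) of pregnancy. Each of the 2 marks and the IgG control had 3 libraries, each made from 50000 formaldehyde-fixed cells. In ChIC-Seq an antibody brings protein A fused to MNase to the chromatin, and the fragments it releases are sequenced. The cells had been digested from minced oviduct, passed through a filter and kept in serum for some hours, so that the lists describe cells after short culture. No treatment or second genotype was measured, and the comparisons are between the marks. The labels give the replicates as separate samples but do not say that they came from separate animals, so that p-values measure the spread between these samples.

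Facts of the lists as a whole bear on every value. Depth per the file headers was 40551842 to 78891920 fragments in the libraries of the marks and 3110985 to 3713369 in the IgG libraries. Median fold enrichment over the local background was 1.43 to 1.62 in the replicate lists, and 13253 to 19637 peaks per list reached 1.3 on the −log10 p-value scale, which is the stricter p-value filter used below. The lists are thus permissive. Several lists shared an IgG library: H3K27ac replicate 2 and H3K4me1 replicates 1 and 2 used IgG replicate 2, and H3K27ac replicate 3 and H3K4me1 replicate 3 used IgG replicate 3. H3K27ac replicate 1 alone used IgG replicate 1 and had the most peaks. Of 8 smooth muscle markers, 4 had promoter H3K27ac in at least 2 lists, among them Acta2 and Des, and Myh11, which encodes smooth muscle myosin, had it in 0 replicate lists. All 6 stromal markers, such as Vim, Col1a1 and Dcn, had both marks in all 6 lists, whereas 0 of 7 epithelial, 1 of 6 leukocyte and 1 of 4 endothelial markers had promoter H3K27ac in at least 2 lists. H3K4me1 met that rule at 3 epithelial markers (Krt8, Krt19 and Ovgp1), 0 leukocyte and 1 endothelial marker, and 4 of the epithelial markers had H3K27ac in 1 replicate list. The part that stromal cells had in the values of the matrix genes was not tested.

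Sequences at the starts are shown first because the promoters differed most in how the marks were placed. Each is the 250 bases before the RefSeq start on GRCm38 (mm10), 5′ to 3′ on the strand of the gene. RefSeq promoters were found for 7 of the 10 genes, and not for Mmp2, Mmp19 and Adamts5. Capitals mark GGGCGG, the GC box, TATAAA, the TATA box, and TGAGTCA, the AP-1 motif, on either strand. Mmp14 and Adamts1 had the highest mean H3K27ac cover of the promoter, Timp3 had both marks, and Mmp3 had H3K4me1 with little H3K27ac.
Mmp14, chr14:54431348-54431597, plus strand: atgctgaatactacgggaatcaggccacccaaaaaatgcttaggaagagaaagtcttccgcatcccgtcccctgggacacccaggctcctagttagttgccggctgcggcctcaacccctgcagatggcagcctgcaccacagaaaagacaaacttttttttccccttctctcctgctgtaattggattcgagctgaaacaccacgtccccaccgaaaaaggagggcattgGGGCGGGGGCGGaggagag
Adamts1, chr16:85803114-85803363, minus strand: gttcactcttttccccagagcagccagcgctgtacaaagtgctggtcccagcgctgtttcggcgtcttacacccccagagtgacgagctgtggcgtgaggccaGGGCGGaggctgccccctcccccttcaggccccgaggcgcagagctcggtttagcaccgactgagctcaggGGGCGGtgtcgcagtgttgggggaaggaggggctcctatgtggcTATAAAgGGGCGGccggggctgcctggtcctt
Timp3, chr10:86300162-86300411, plus strand: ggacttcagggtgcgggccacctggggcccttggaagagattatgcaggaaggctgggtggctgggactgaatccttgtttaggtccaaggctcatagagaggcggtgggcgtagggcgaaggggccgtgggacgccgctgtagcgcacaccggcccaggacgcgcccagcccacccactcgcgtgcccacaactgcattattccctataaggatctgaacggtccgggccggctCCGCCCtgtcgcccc
Mmp3, chr9:7445572-7445821, plus strand: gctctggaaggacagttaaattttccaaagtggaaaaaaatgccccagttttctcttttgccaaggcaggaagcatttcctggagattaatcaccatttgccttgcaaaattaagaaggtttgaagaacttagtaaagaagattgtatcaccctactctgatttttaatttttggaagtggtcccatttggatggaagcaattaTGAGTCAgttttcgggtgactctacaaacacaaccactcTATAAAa

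The Mmp3 promoter had 1 TATA box and 1 AP-1 motif, with a GC content of 37.6%, the lowest of the 7. The other 6 lay between 55.2% (Mmp14) and 71.2% (Adamts9), against a median of 52.4% over 32841 RefSeq promoters of the same length. Each of those 6 promoters had at least 1 GC box, and Adamts1 had 3 of them beside a TATA box. Over all 32841 promoters, 32.75% had a GC box, 12.37% a TATA box and 4.46% the AP-1 motif. These matches describe letters only, and binding was not measured.

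Most of the genes carried both marks near a start. H3K27ac was found at the promoter in at least 2 of 3 lists for 9 of 10 genes, the exception being Mmp3, against 53.9% of all protein-coding genes. H3K4me1 was found for 8 of 10 genes, the exceptions being Adamts1 and Adamts9, against 43.7% of all genes. Both marks were found for 7 genes, against 39.1%. H3K27ac alone was found for 2 genes, Adamts1 and Adamts9, against 14.7%. Under the stricter p-value filter the number of genes with H3K27ac fell to 7, with H3K4me1 to 4 and with both marks to 3. The number with H3K4me1 rose to 10 with promoters of 3 kb. The shares of all genes were not computed at these settings.

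H3K27ac lay on the start base itself more often than H3K4me1 did. Of the 10 first starts, 8 were covered by H3K27ac in at least 2 lists and 3 by H3K4me1. Of all 21 annotated starts of these genes, 16 and 7 were covered. Over all 54361 starts of protein-coding transcripts the shares were 40.2% and 12.8%, so that both marks stood above the background and in the same order.

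**Figure D1:**
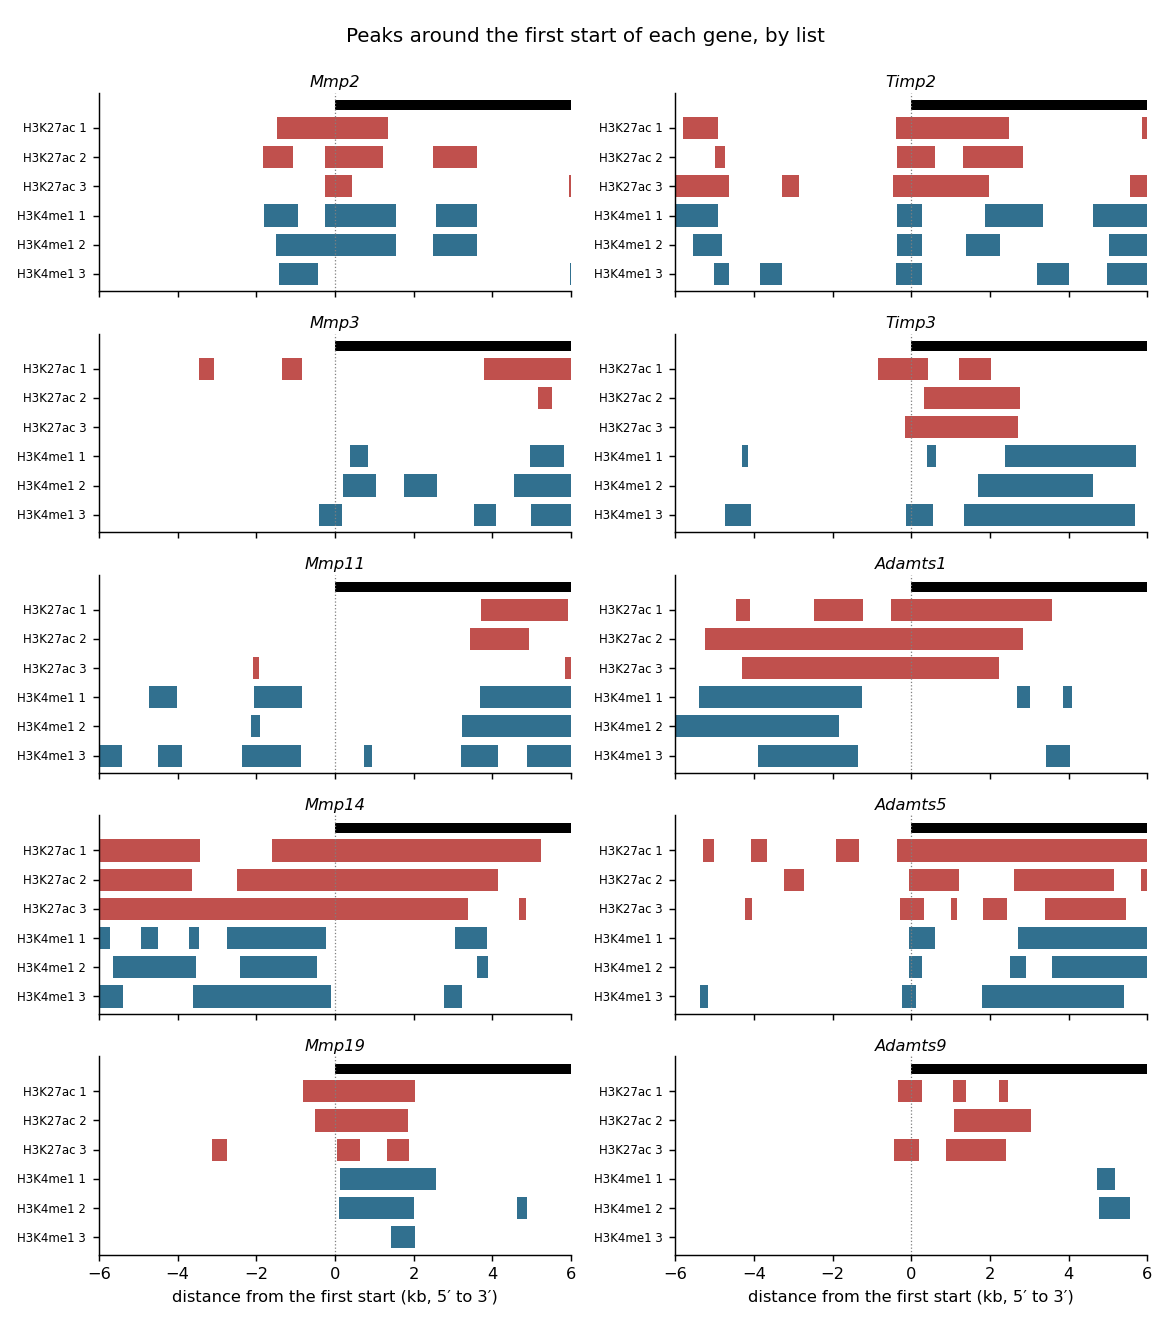
Peaks of the 3 H3K27ac lists (red) and 3 H3K4me1 lists (blue) within 6 kb of the first start of each gene, drawn by distance in kb in the direction of transcription. The black bar is the gene body. H3K27ac spans the Mmp14 and Adamts1 starts in all 3 lists, while the H3K4me1 block upstream of each ends before the start. Further H3K4me1 peaks lie inside both genes.

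Among the metalloproteinases, Mmp14 had the promoter H3K27ac of the highest median rank. The gene, at chr14:54431612-54445364 on the plus strand, encodes a membrane-bound collagenase that activates MMP2. Its H3K27ac peaks were 6831, 6636 and 10556 bp long in replicates 1, 2 and 3. The replicate 3 peak began at −7178 bp from the first start and took in a stretch that was a separate flanking peak in replicates 1 and 2. Their fold enrichment stood at the 97.7 to 99.3 percentile of their own lists. Peaks covered 100% of the promoter in each H3K27ac list and 27.2%, 18.9% and 32.1% of it in the H3K4me1 lists. No H3K4me1 list reached an H3K27ac list, with p = 0.1 by the exact permutation test, which cannot go lower with 3 lists a side (adjusted p = 0.358 over all genes). H3K4me1 was not weak there: its peaks stood at the 96.3 to 98.3 percentile, but ended 234, 466 and 94 bp upstream of the first start. The pooled lists showed the same arrangement, with H3K27ac over the whole promoter and H3K4me1 over 32.3% of it.

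Mmp2, at chr8:92827291-92853420 on the plus strand, encodes gelatinase A, which degrades gelatin and basement membrane collagen. Its H3K27ac peaks lay on the first start in all 3 lists, with lengths of 2819, 1479 and 670 bp. H3K4me1 lay on the start in replicates 1 and 2 and ended 436 bp upstream of it in replicate 3. H3K27ac covered 32.7 ± 16.7% of the promoters and H3K4me1 33.6 ± 16.0% (SD, n = 3), and the lists of the marks overlapped. An internal Mmp2 start at position 92843950 had H3K27ac within 1 kb in 0 lists and H3K4me1 in 1.

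Mmp3, at chr9:7445822-7455975 on the plus strand, encodes stromelysin 1, which cleaves many matrix proteins and other MMP precursors. It was the gene with the least H3K27ac at the promoter by mean cover. Peaks covered 8.65%, 0% and 0% of its promoter in the H3K27ac lists and 23.4%, 39.9% and 28.6% in the H3K4me1 lists. The marks did not overlap (exact permutation p = 0.1, adjusted p = 0.358). Mmp3 was the 1 gene of the 10 with more promoter H3K4me1 in each list, an order found for 1.71% of all genes. The nearest H3K27ac peak was 828 bp upstream of the start in replicate 1, 5161 bp downstream in replicate 2 and 81407 bp downstream in replicate 3. That 1 promoter peak ranked at the 49.7 percentile of its list, and the pooled H3K27ac list had 0 peaks in the Mmp3 window.

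Mmp11 encodes stromelysin 3, a secreted enzyme that is activated inside the cell, and lies at chr10:75923222-75936496 on the minus strand. Its H3K27ac sat not at the first start but at a pair of starts 3994 and 4021 bp downstream. At both of these, H3K27ac was present in 2 lists and H3K4me1 in 3. The former of the pair, at position 75932502, is the RefSeq start. The gene Chchd10, which overlaps the Mmp11 body, also had promoter H3K27ac in 2 lists and H3K4me1 in 3. How much of the Mmp11 values the Chchd10 promoter carries was not tested. The first start had H3K27ac within 1 kb in 0 lists and H3K4me1 in 2. Mmp19, a secreted MMP at chr10:128790910-128800824 on the plus strand, varied more between lists. Peaks covered 91.5%, 75.8% and 28.6% of its promoter for H3K27ac and 45.2%, 45.9% and 0% for H3K4me1. The marks overlapped, and in the pooled lists their order was the other way, with 77.3% for H3K27ac and 90.9% for H3K4me1.

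Both inhibitor genes carried both marks at the promoter in all 6 lists. Timp2, at chr11:118301069-118355740 on the minus strand, encodes the inhibitor that also takes part in MMP2 activation. Its H3K4me1 peak on the start was narrow and nearly identical between lists, at 620, 614 and 653 bp, with each pair of ends within 50 bp. H3K27ac covered 72.6%, 42.6% and 76.4% of the promoter and H3K4me1 covered 27.7%, 27.5% and 29.2%. The H3K27ac lists all stood above the H3K4me1 lists (exact permutation p = 0.1, adjusted p = 0.358).

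Timp3, at chr10:86300372-86349506 on the plus strand within the Syn3 gene, encodes an inhibitor that binds to the matrix and also blocks ADAMTS proteases. Its 2 starts, 2482 bp apart, were marked differently. On the first start H3K27ac lay in 2 lists and H3K4me1 in 1, and on the second these numbers were 2 and 3. The H3K4me1 peaks over the second start were 3329, 2928 and 4335 bp long. H3K27ac covered 51.5 ± 7.37% of both promoters and H3K4me1 48.4 ± 17.2% (SD, n = 3), and the marks overlapped.

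Of the ADAMTS genes, Adamts1 had the widest difference between the marks in promoter cover. The gene, at chr16:85793827-85803113 on the minus strand, encodes a protease that cleaves versican and is induced by progesterone in the ovulating follicle. H3K27ac covered 86.4%, 100% and 88.8% of its promoter, and H3K4me1 covered 0% in each list. The exact permutation p was 0.1 (adjusted p = 0.358). The H3K27ac peaks were 4079, 8090 and 6528 bp long, at the 94.3 to 98.1 percentile. The nearest H3K4me1 peaks ended 1251, 1847 and 1362 bp upstream of the start, and others lay over the 3′ part of the gene. A pooled H3K4me1 peak from 2224 to 4230 bp after the first start reached into the promoter of the internal start, with 11.3% of the joint promoter covered.

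More promoter H3K27ac in each list was found for 3 of the 10 genes, Mmp14, Timp2 and Adamts1, against 26.2% of all genes. Adamts5, at chr16:85856173-85901828 on the minus strand, encodes a major aggrecanase and lies 53059 bp from Adamts1. It had both marks on its single start in all 6 lists. H3K27ac covered 68.5%, 53.0% and 31.1% of its promoter and H3K4me1 33.0%, 16.5% and 17.5%, so that 1 list of each mark overlapped. Adamts9, at chr6:92772699-92943492 on the minus strand, encodes another versican-cleaving protease. H3K27ac covered 15.4%, 0% and 19.0% of its promoters and H3K4me1 0% in each list. Its nearest H3K4me1 peaks lay 4726, 4786 and 15069 bp downstream of the first start, and an internal start 42051 bp downstream had neither mark in any list.

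**Figure D2:**
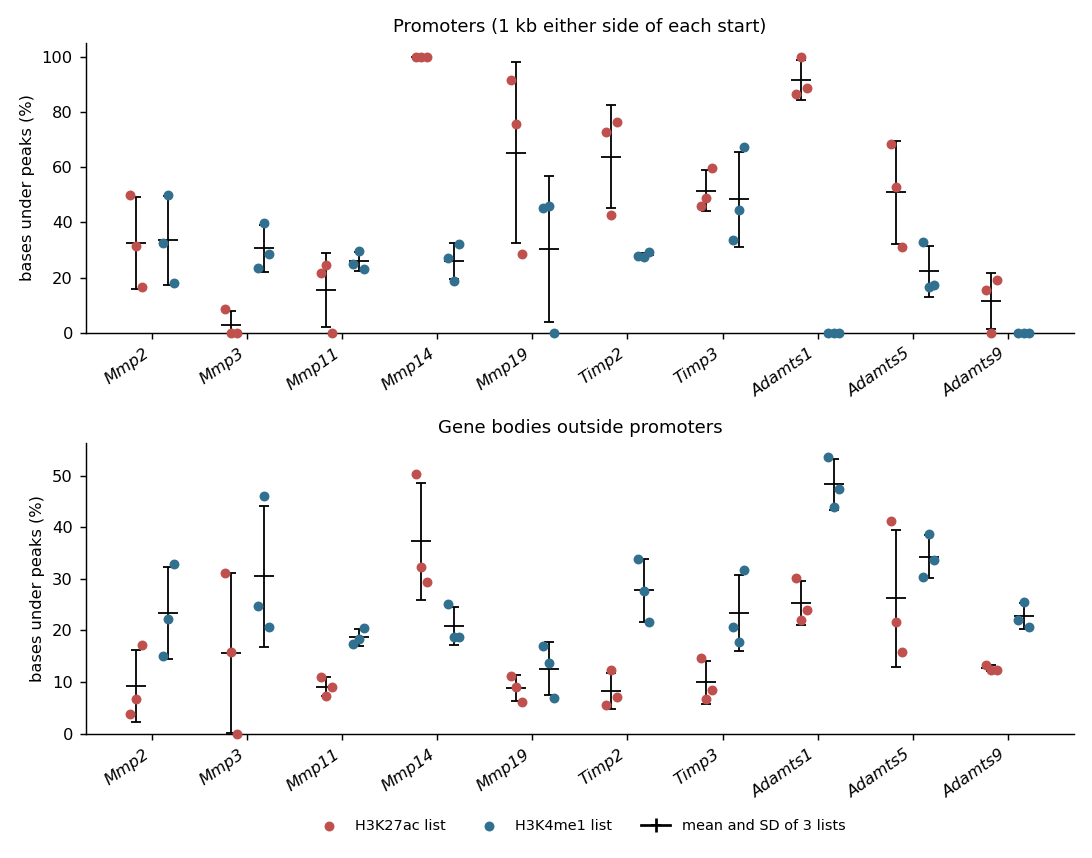
Percent of bases under peaks in the promoters (upper panel) and in the gene bodies outside promoters (lower panel), with 1 point per replicate list and bars for the mean and SD (n = 3 per mark). H3K27ac stands above H3K4me1 at the Mmp14, Timp2 and Adamts1 promoters, and H3K4me1 stands above H3K27ac in 5 gene bodies.

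Within gene bodies the order of the marks was often the other way. H3K4me1 cover was higher in each list for 5 genes, Mmp11, Timp2, Timp3, Adamts1 and Adamts9, against 12.7% of all genes. H3K27ac cover was higher in each list for 1 gene, Mmp14, against 3.97%. In the body of Timp2, H3K27ac covered 5.47%, 12.2% and 7.1% and H3K4me1 covered 33.9%, 27.6% and 21.7%. In the body of Adamts1, H3K27ac covered 30.1%, 22.0% and 23.9% and H3K4me1 covered 53.6%, 43.9% and 47.4%. The marks thus changed places between the promoter and the body of both genes. For each of these comparisons the exact permutation test gave p = 0.1 (adjusted p = 0.601). In the body of Mmp14, H3K27ac covered 50.3%, 32.3% and 29.3% and H3K4me1 25.2%, 18.8% and 18.7%, with the same p-values by the exact permutation test. The pooled lists had the other order there, with 44.0% for H3K27ac and 61.0% for H3K4me1.

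Over the flanks, 0 genes had more H3K4me1 in each list, against 7.73% of all genes, and 1 gene, Mmp19, had more H3K27ac, against 15.5%. At an unadjusted exact permutation p under 0.05 the count is 0 for every comparison, since the design cannot reach it. Peaks covered 25.9%, 28.6% and 23.2% of the Mmp19 flanks for H3K27ac and 17.7%, 20.8% and 16.4% for H3K4me1. The promoters of its neighbours Ormdl2, Dnajc14, Tmem198b and Sarnp each had H3K27ac in 3 lists, and how much of the flank value they carry was not tested. The Adamts9 and Timp3 flanks were nearly empty, with at most 1.42% and 2.42% covered in any replicate list.

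When promoter, body and flanks were taken as a whole, the genes fell on both sides. H3K4me1 covered more of the window in each list for Mmp2, Timp2, Timp3 and Adamts9, 4 of 10 genes against 12.0% of all genes. H3K27ac covered more for Mmp14, Mmp19 and Adamts1, 3 of 10 against 17.2%. For each of these 7 genes the exact permutation test gave p = 0.1 (adjusted p = 0.342). Without H3K27ac replicate 1 the first number was 7, as Mmp3, Mmp11 and Adamts5 joined. Among the lists called against IgG replicate 2, and among those against IgG replicate 3, there was 1 H3K27ac list. Overlap between replicates could not be judged there, and the difference of means kept its sign for each of the 10 genes. The number with more H3K27ac was 1 with flanks of 10 kb and 0 with flanks of 50 kb.

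The Mmp2 window was covered 9.42%, 6.16% and 7.32% by H3K27ac and 17.3%, 19.9% and 14.3% by H3K4me1, a difference of means of 9.52 percentage points. Under the stricter p-value filter the difference was −0.45 points, with the sign reversed. For Timp2 the values were 10.3%, 11.9% and 16.2% against 22.8%, 17.8% and 19.7%. Timp3 had 9.27%, 5.07% and 6.39% against 12.2%, 10.0% and 18.1%, and Adamts9 had 10.6%, 9.70% and 9.88% against 16.9%, 19.4% and 15.7%. The stricter filter also brought the number of genes with more H3K4me1 from 4 to 1, and the difference of means from 7.28 to 1.66 points for Timp2, from 7.30 to 0.90 for Adamts9 and from 6.55 to 5.43 for Timp3. The Adamts9 H3K27ac lists were the closest to each other, with an SD of 0.475 points.

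Adamts1 had the highest mean H3K27ac cover of the 10 windows over the replicate lists, at 28.1%, whereas the pooled list gave 28.3% for it, 33.1% for Mmp19 and 31.7% for Mmp14. The Adamts1 lists gave 25.2%, 28.0% and 31.2% for H3K27ac and 22.7%, 22.0% and 18.9% for H3K4me1. Mmp14 gave 25.4%, 26.1% and 24.8% against 20.1%, 15.1% and 17.8%, and the promoters of its neighbours Mrpl52 and Lrp10 had both marks in all 6 lists. Mmp19 gave 26.0%, 27.3% and 20.8% against 18.5%, 20.6% and 14.4%, so that its closest lists, at 20.8% and 20.6%, nearly met. Over the gene body alone the Mmp19 difference was 0.64 points toward H3K4me1. The remaining 3 genes overlapped between marks. Adamts5 had 26.0%, 12.8% and 10.5% for H3K27ac, Mmp3 had 11.1%, 3.78% and 0%, and Mmp11 had 19.4%, 13.1% and 7.22%. In each of them H3K27ac replicate 1 was the highest of the H3K27ac lists. H3K4me1 covered 16.9%, 22.9% and 20.5% of the Adamts5 window, 4.87%, 9.58% and 6.98% of the Mmp3 window and 23.1%, 16.9% and 23.6% of the Mmp11 window. Over the 10 genes the median of the mean cover was 13.0% for H3K27ac and 17.7% for H3K4me1, against 4.71% and 3.97% over all genes.

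**Figure D3:**
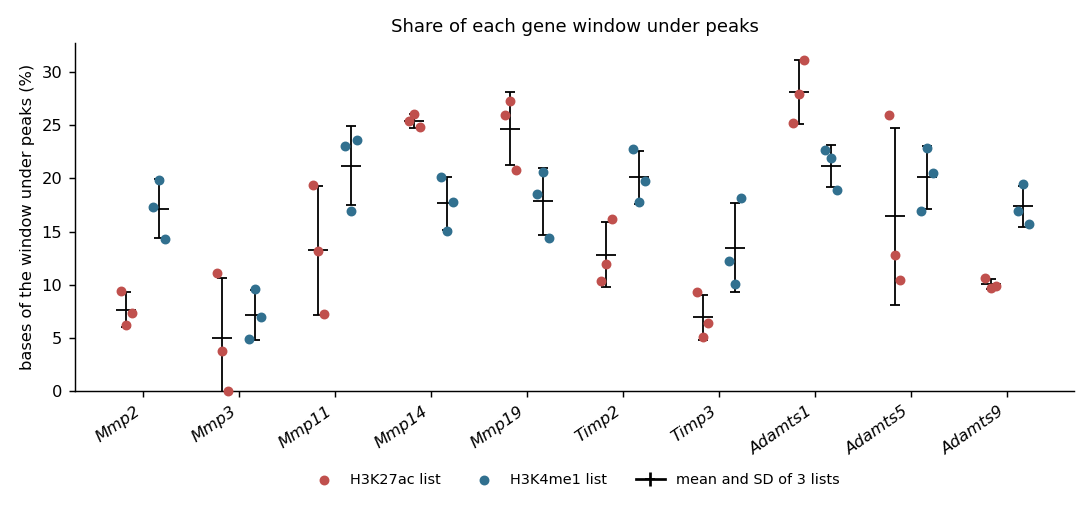
Percent of bases under peaks in the window of each gene, with 1 point per replicate list and bars for the mean and SD (n = 3 per mark). H3K4me1 stands above H3K27ac for Mmp2, Timp2, Timp3 and Adamts9, and below it for Mmp14, Mmp19 and Adamts1.

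Outside promoters, the 10 windows had 71 distal H3K27ac regions, covered in at least 2 lists, and 51 of them also touched a distal H3K4me1 region. Over the whole genome this was 39012 of 63605. Each of the 10 windows had at least 2 such double-marked regions, whereas 55.6% of all protein-coding windows had none. The median density was 5.40 per 100 kb, against 0 over all windows. Adamts9 had the most, 14, all of them inside its 171-kb body. Adamts5 had 10, of which 8 were inside the gene, which was 10.4 per 100 kb, the highest density of the 10 in the replicate lists. No intragenic or flanking H3K27ac peak of Adamts5 in those lists reached the stricter p-value filter, and the pooled H3K27ac list had 3 peaks in its window. Timp2 had 6, Mmp11 and Mmp19 4 each, Mmp2, Mmp14 and Adamts1 3 each, and Mmp3 and Timp3 2 each. Of the Mmp2 regions, 1 was centred at −1270 bp from the first start, just outside the promoter. In H3K27ac replicate 1 it was part of the promoter peak. The total was 22 when a region had to be in all 3 lists of each mark, and 6 under the stricter p-value filter.

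**Figure D4:**
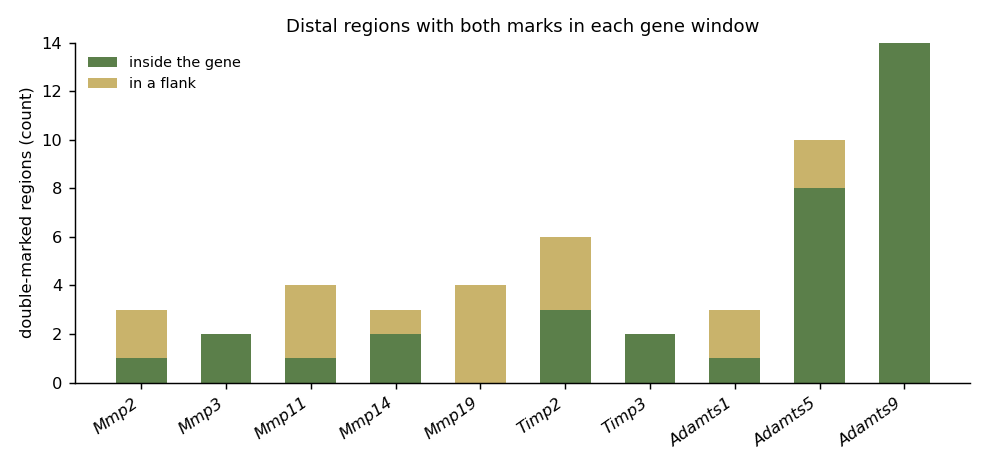
Number of distal regions with both marks in the window of each gene, split into regions inside the gene and regions in a flank. Adamts9 has 14, all inside the gene, and Adamts5 has 10.

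Regions covered by all 6 replicate lists outside promoters were found in 8 windows, all but those of Mmp2 and Mmp3. The longest were in intronic sequence of Adamts5, 1570 bp at chr16:85896677-85898246, and upstream of Adamts1, 1098 bp at chr16:85821627-85822724 in a noncoding transcript's intron. That of Mmp14, 951 bp at chr14:54444273-54445223, overlapped the 3′ exon of the gene. The Timp3 region was intronic, 657 bp at chr10:86310518-86311174 and centred 10474 bp after the first start. Over the Adamts5 region, the peak of H3K27ac replicate 1 was its 7808-bp promoter peak, which reached across the start. No replicate peak over the Adamts5 or Adamts1 region reached the stricter p-value filter. The Timp2 region, 696 bp at chr11:118362668-118363363, was centred at −7275 bp from the first start, upstream of it, and overlapped no annotated gene, and its peaks reached that filter in all 6 lists. In the remaining windows the regions were 869 bp at chr6:92826201-92827069 in an Adamts9 intron, 636 bp at chr10:128822927-128823562 within Sarnp near Mmp19, and 354 bp at chr10:75922618-75922971 just past the end of Mmp11. The Mmp11 stretch directly adjoins the promoter of the neighbouring gene Smarcb1, and the peaks over it in all 6 lists also touched that promoter. Those of Mmp2, 424 bp at chr8:92872202-92872625 within Lpcat2, and of Mmp3, 352 bp at chr9:7450983-7451334 inside the gene, were covered by 5 lists. For the Adamts5, Adamts1, Timp3 and Timp2 regions the central 300 bases are shown on the plus strand of GRCm38, because they were the sequences most often marked beside the inhibitors and the neighbouring ADAMTS pair. Capitals mark the CArG box, the site of serum response factor, TATAAA and GGAATG, the TEAD motif, on either strand.
Adamts5, chr16:85897312-85897611: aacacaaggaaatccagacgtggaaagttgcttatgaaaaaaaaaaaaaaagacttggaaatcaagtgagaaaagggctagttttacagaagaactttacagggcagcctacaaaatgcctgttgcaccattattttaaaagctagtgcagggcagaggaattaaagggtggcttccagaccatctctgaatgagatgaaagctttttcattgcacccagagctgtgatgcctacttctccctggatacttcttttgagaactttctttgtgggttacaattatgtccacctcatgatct
Adamts1, chr16:85822026-85822325: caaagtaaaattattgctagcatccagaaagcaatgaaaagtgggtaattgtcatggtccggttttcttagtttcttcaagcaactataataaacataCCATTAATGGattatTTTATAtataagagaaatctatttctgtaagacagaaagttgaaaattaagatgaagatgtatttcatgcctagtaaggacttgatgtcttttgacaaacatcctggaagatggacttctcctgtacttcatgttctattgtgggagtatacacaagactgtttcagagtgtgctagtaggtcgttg
Timp3, chr10:86310697-86310996: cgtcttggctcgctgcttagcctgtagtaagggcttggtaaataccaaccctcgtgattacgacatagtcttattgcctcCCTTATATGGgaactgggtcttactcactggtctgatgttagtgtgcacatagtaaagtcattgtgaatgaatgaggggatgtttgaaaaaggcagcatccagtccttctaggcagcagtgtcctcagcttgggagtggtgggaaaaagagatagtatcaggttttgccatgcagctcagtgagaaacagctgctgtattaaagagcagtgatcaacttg
Timp2, chr11:118362866-118363165: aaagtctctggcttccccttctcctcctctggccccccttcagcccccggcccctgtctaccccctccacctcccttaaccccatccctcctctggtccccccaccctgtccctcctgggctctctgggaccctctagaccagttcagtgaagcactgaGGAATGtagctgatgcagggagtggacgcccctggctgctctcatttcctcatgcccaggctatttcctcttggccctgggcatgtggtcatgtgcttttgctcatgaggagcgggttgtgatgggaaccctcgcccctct

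Of the central sequences of the 8 regions covered by all 6 lists, 2 held a CArG box, those of Timp3 and Adamts1, and the other 6 held none. It was found in 1.94% of 10226 non-promoter stretches covered by all 6 lists, over the same 300 bases at their centre. The Adamts1 sequence also held TATAAA on the minus strand, where its letters overlap those of no other motif searched, against 28.1% of the stretches. The Timp2 sequence held 1 TEAD motif, against 16.42%, and had a GC content of 61.3%, against a median of 40.3%. The Adamts5 sequence held none of the 5 motifs. Peaks over the Timp3 region had fold enrichments of 1.84, 1.78 and 1.93 in the H3K27ac lists and 1.88, 1.91 and 1.94 in the H3K4me1 lists. Over the Adamts1 region they were lower, at 1.54, 1.62 and 1.62 for H3K27ac and 1.64, 1.64 and 1.68 for H3K4me1. The Timp2 region had 1.99, 1.95 and 2.51 for H3K27ac and 1.98, 1.81 and 2.26 for H3K4me1, and ranked highest in replicate 3 of both marks, which shared an IgG library.

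**Figure D5:**
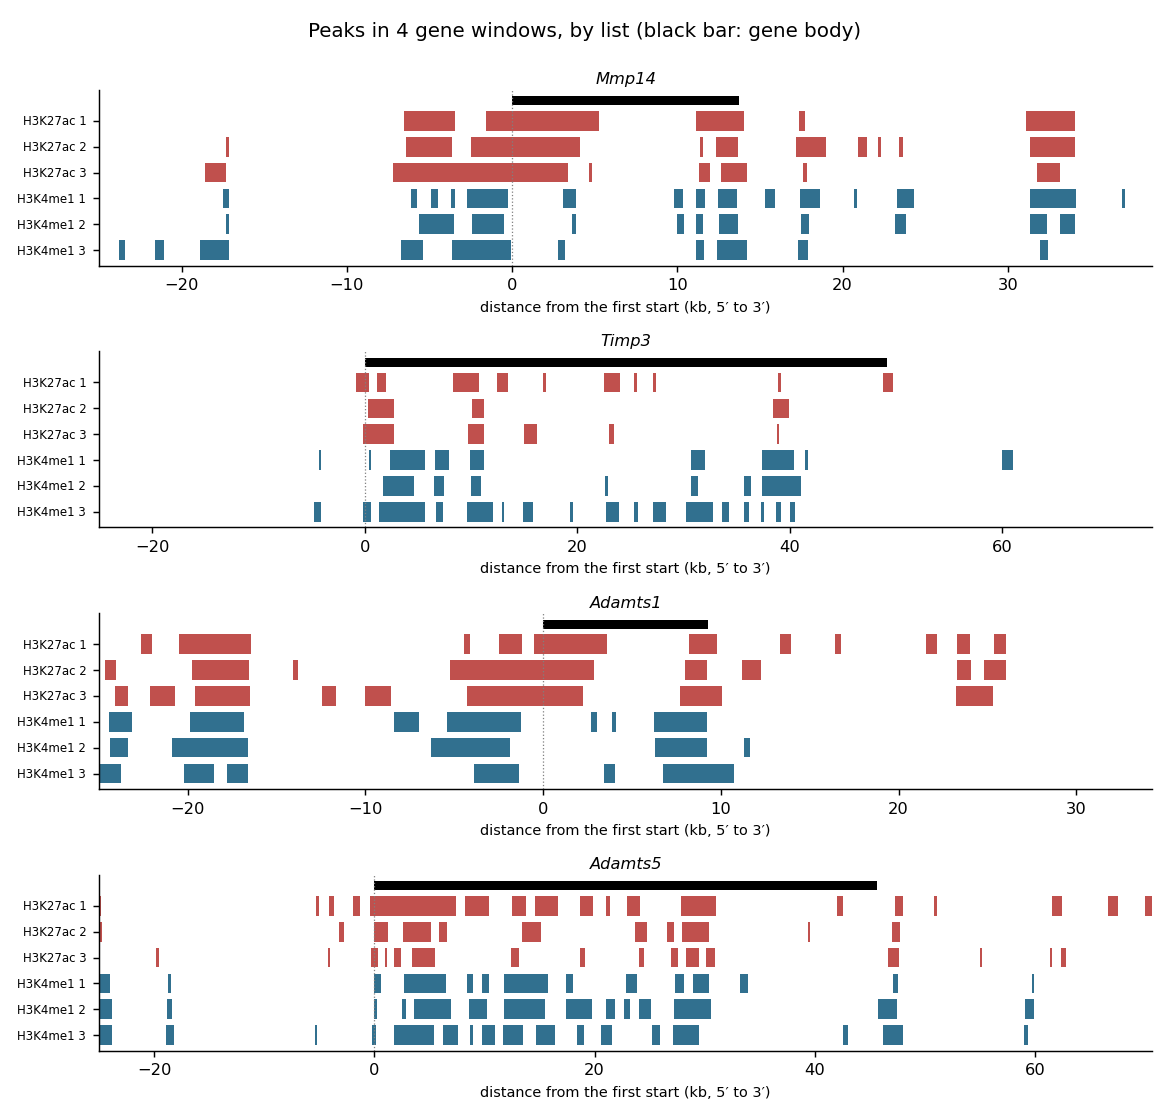
Peaks of each replicate list over the whole windows of Mmp14, Timp3, Adamts1 and Adamts5, by distance in kb from the first start. The black bar is the gene body. Blocks present in all 6 lists are seen 10 kb into Timp3, 19 kb before Adamts1 and 4 kb into Adamts5.

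Promoters of the rest of the family were counted in the same way. The 36 other genes were MMP, TIMP and ADAMTS genes and the membrane-anchored MMP inhibitor gene Reck. Of these, 17 (47.2%) had H3K27ac and 15 (41.7%) had H3K4me1 at the promoter in at least 2 lists, and 13 had both. The shares over all protein-coding genes were 53.9%, 43.7% and 39.1%, so that these relatives did not stand above the background. The H3K4me1 count was 9 without H3K4me1 replicate 2, 9 when all 3 lists were required and 24 in the pooled list. Under the stricter p-value filter 7 had H3K27ac and 3 had H3K4me1. Both marks in all 6 lists were found at Mmp27, Timp1, Reck, Adamts6 and Adamts10. None of the 6 lists had a promoter peak at Mmp9, which encodes gelatinase B, or at 9 others, among them Timp4. In the plasminogen system, which activates several MMP precursors, Plat, a plasminogen activator gene, had both marks in all 6 lists, and Plg, which encodes plasminogen itself, in none.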

How the data were processed

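ChIC-Seq peak lists were analysed for 3 H3K27ac and 3 H3K4me1 libraries and 1 pooled call per mark, and IgG entered as the control of those calls. Per the submitters' processing notes, cutadapt, Bowtie2, MACS2 and GRCm38.p5 were used. Per the file headers the authors called broad paired-end peaks with MACS 2.2.7.1 at p-value cutoffs of 0.05 for strong and 0.1 for weak regions, with the larger library scaled to the smaller. The deposited pileup is a coverage signal at the IgG depth, and the deposited fold enrichment is a ratio to the local background. Each peak also has a deposited −log10 p-value, and a deposited −log10 q-value that was not used. Per-peak values served only to rank or filter peaks within a list.

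Gene models were from GENCODE mouse release 21 (GRCm38), with promoters reaching 1 kb either side of 54361 starts of protein-coding transcripts. A peak counted with an overlap of at least 1 bp, and a mark was called with at least 2 of 3 lists. Cover was the percent of bases under the union of a list's peaks, compared between marks by a two-sided exact permutation test over 20 splits with Benjamini-Hochberg adjustment over all genes. Sequences were from RefSeq promoters and the GRCm38 genome. All 10 genes were named, with the relatives that had a promoter peak in all 6 lists and, per gene, the non-promoter region covered by the most lists. 1 relative is left out of the text. The genes and lists were chosen with earlier results of these data known. Scripts ran in Python 3.11.15 (pandas 2.3.3, numpy 2.4.6, matplotlib 3.10.9), and the interval arithmetic was tested on simulated data.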

Additional observations from a re-analysis of the deposited data

How the results depend on the processing

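The lists are permissive, and several counts moved with the −log10 p-value filter. With peaks of at least 1.3, promoter H3K27ac was called for 7 genes, H3K4me1 for 4 and both marks for 3. H3K4me1 covered more of the window in 1 gene, and 6 double-marked distal regions were left. The Mmp2 window difference (H3K4me1 minus H3K27ac) reversed to −0.45 points. H3K27ac covered more in 3 genes, as before the filter. The difference went from −7.789 to −14.03 points for Mmp14, from −6.865 to −11.46 for Mmp19 and from −6.948 to −9.257 for Adamts1. Leaving out each list in turn gave 7 to 9 genes with promoter H3K27ac, 7 to 8 with H3K4me1, 6 to 7 with both, 4 to 7 with more H3K4me1 in the window, 3 to 3 with more H3K27ac, and 34 to 49 double-marked regions. The value of 7 came without H3K27ac replicate 1, and the Mmp3 difference ran from −0.30 points without H3K27ac replicate 3, where it reversed, to 5.25 points without H3K27ac replicate 1.

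The lists called against IgG 2, and those called against IgG 3, included only 1 H3K27ac list, so that overlap between replicates could not be judged. The window differences kept their signs in both. More H3K27ac was found for 1 gene with flanks of 10 kb and 0 with 50 kb. The Mmp19 difference reversed to 0.63 points with 50 kb and to 0.64 points over the gene body alone. Double-marked regions in all 3 lists of each mark numbered 22. Of 262 recomputed values, 243 kept their direction and, for counts, stayed within 1.5 times the reported number. Some of them could not change, so that this number overstates the stability. Examples are promoter counts of a mark when a list of the other mark was left out, and window differences when lists were paired by replicate number.

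Whether replicate numbers pair the lists could not be settled. The correlations of same-numbered lists' deviations were −0.08, 0.335 and 0.494 for replicates 1, 2 and 3. Those of differently numbered lists ran from −0.508 to 0.374. Lists with a common IgG library correlated at 0.335 to 0.494. Same-numbered lists of replicates 2 and 3 also share an IgG library, so that number and library cannot be told apart there. With the replicate block, 5 genes had more H3K4me1 and 3 more H3K27ac in every pair, and the smallest p is 0.25. Dividing each window share by the list's share of the genome, chosen after seeing the data, gave 3 and 3 genes. The IgG depth limits how finely peaks can be called, and uncovered sequence is not shown to lack a mark.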
